A study of Mus musculus with 4 samples.

Results

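Promoter-only regions are stretches of autosomal sequence in which every array probe carries the annotation PROMOTER in the array design, with no probe inside a gene and none in a promoter shared by divergent genes. Autosomal probes with the same gene name and gaps of at most 1000 bp were joined, which gave 18490 autosomal regions, and 2923 of these were promoter-only. They belong to 2870 gene names and hold 9990 probes of 45 to 60 bases. A region held 3 probes at the median and at most 17, and the regions with more than 1 probe spanned 719 bp at the median. For comparison, 3505 regions lay only inside genes, 1546 only in divergent promoters, and 9883 mixed several annotations.

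The samples were genomic DNA from intestine of C57BL/6 mice, a common inbred strain, at 3 months and at 32 months of age, with no genotype or treatment besides. Each age was represented by 1 sample on each of 2 arrays, and every array received both ages. The first array carried mainly chromosomes 1 to 8 and the second the remaining chromosomes. The green dye Cy3 marked the DNA of 3 months and the red dye Cy5 that of 32 months on both arrays, so dye and age cannot be told apart. Differences therefore describe single samples, with no replicate check, no p-value, and precision limited by the number of arrays. The sources used here do not give the number or sex of the animals, the genome build or how DNA was selected for its methylation. Values are accordingly reported as signal and not as methylation. In bulk tissue a shift in the mix of cell types and a shift within cells cannot be told apart, and DNA signal does not allow the labelled tissue to be checked against its markers.

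A promoter is the sequence around the start of a gene at which transcription factors and RNA polymerase assemble. In mammals DNA methylation sits mostly on cytosines followed by guanine, called CpG sites. Many promoters are rich in such sites and mostly free of methylation, and promoters of developmental regulators, which Polycomb proteins keep silent in many tissues, are known for gaining methylation with age in intestine and other tissues.

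The following probes were picked from regions that differed between the ages and do not stand for the typical region. They are printed as in the array files with each CpG in capitals. The files state neither build nor strand for them. The promoter-only region with the highest ratio belongs to Tlx3, a homeobox gene of neuron specification, at chr11:33103747-33104401.
Tlx3 probe 1: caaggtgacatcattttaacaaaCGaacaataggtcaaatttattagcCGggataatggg
Tlx3 probe 2: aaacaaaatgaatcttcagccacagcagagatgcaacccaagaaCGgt
Tlx3 probe 3: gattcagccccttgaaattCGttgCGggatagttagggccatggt
Its signals were 9810 at 3 months and 490000 at 32 months on probe 1, 2700 and 243000 on probe 2, and 1290 and 8200 on probe 3. The 32-month signal was the higher one on all 3 probes, and by far the most on the first pair. Tlx1, the related homeobox gene needed to form the spleen, is shown because its probes agree closely although only 1 of them holds CpG sites (chr19:45203477-45204013).
Tlx1 probe 1: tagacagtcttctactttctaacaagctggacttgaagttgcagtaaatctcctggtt
Tlx1 probe 2: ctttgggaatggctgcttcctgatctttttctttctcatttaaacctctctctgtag
Tlx1 probe 3: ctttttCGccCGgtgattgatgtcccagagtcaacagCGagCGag
The Tlx1 probes had 1700, 29300 and 8700 at 3 months against 32600, 455000 and 167000 at 32 months, so the probes without a CpG differed as much as the one with 4. Grb10, an imprinted gene whose product restrains growth signalling, had the brightest called region at 32 months (chr11:11937756-11938375).
Grb10 probe 1: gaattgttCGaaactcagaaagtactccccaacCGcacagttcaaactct
Grb10 probe 2: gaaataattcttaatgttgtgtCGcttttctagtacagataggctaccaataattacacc
Grb10 probe 3: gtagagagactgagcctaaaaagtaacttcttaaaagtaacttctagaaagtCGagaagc
Its probes had 37300, 56200 and 29200 at 3 months against 521000, 726000 and 271000 at 32 months. Ezh2, the histone methyltransferase of Polycomb complexes, is shown as a region in the opposite direction (chr6:47524840-47525425).
Ezh2 probe 1: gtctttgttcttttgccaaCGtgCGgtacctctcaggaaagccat
Ezh2 probe 2: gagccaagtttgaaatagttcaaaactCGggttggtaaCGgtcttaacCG
Ezh2 probe 3: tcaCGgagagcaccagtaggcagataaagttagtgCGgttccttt
Ezh2 probe 4: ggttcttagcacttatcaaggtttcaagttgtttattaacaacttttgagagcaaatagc
The Ezh2 probes had 6630, 4230, 667 and 183 at 3 months against 3870, 2520, 264 and 68 at 32 months, the last of these not well above background. Hand2, a basic helix-loop-helix gene of heart and limb, is shown for neighbouring probes that behaved differently within 1 region on chromosome 8, and was chosen after its values were seen.
Hand2 probe 4: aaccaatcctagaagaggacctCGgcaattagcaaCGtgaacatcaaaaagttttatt
Hand2 probe 5: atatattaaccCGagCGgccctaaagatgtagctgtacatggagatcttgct
Hand2 probe 6: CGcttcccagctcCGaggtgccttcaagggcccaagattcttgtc
Probe 4 of Hand2 had 94.7 at 3 months and 182 at 32 months, whereas probe 5 had 13000 and 160000 and probe 6 had 4580 and 213000.

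Most promoter-only regions gave like signals at both ages, and those that differed were mostly higher at 32 months. A region's ratio is the median over its usable probes of log2 of 32-month over 3-month signal, after the median of the array was subtracted, and a signal given for a region is the median over the same probes. A probe was usable if it stood well above background in at least 1 sample, and 2005 regions (68.6%) had at least 2 such probes. The remaining 918 were not measured, among them the 302 with a single probe. Of the measured regions, 74 (3.69%) were called higher at 32 months, with a ratio of at least 1 and every usable probe above 0. Under the same rule 304 of 14835 autosomal regions were called higher, which is 2.05%. The mirrored rule called 9 promoter-only regions lower (0.449%), against 0.519% of all autosomal regions. The other 1922 promoter-only regions met neither rule.

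Higher regions thus made up 89.2% of the calls among promoter-only regions and 77.2% among the other autosomal regions. With uncentred ratios 63 promoter-only regions were called higher (3.14%) and 18 lower (0.898%), a share of 77.8%. All autosomal regions then had 1.60% higher and 0.708% lower, so this 77.8% is not to be set beside the 77.2% above. With normexp background correction 67 were called higher (3.34%) and 0 lower. All autosomal regions then had 2.82% higher and 0.054% lower. The median ratio over all measured promoter-only regions was 0.017, and 52.4% of them lay above 0. Centring on the array median removes a shift common to all probes, and over the alternatives this median ran from -0.0432 to 0.10. Its middle 90% ran from -0.57 to 0.91. The called regions differed by 3.53-fold at the median when higher and 2.30-fold when lower. Of the higher ones 30 reached at least 4-fold and 7 at least 16-fold, while the strongest ratio among the called lower ones was -1.74. The lowest ratio of any measured promoter-only region was -2.26, without a call because its probes did not all lie below 0. In 68 of the 74 higher regions every usable probe was well above background at 3 months too. Among the 9 lower regions this held for 5 at 32 months.

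**Figure D1:**
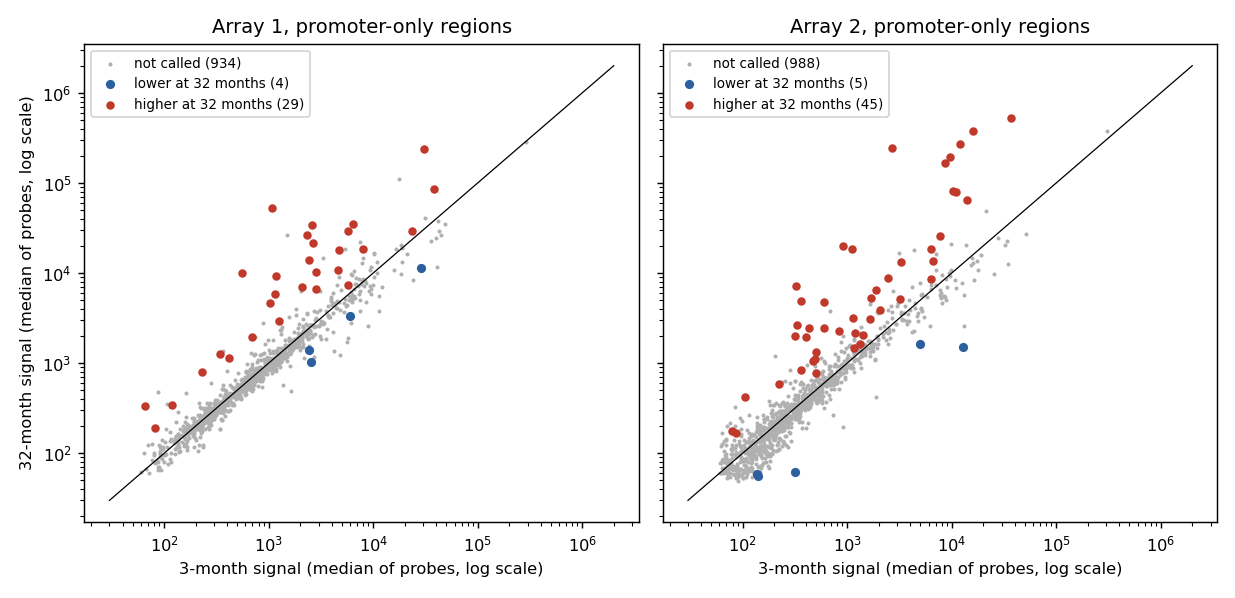
Signal of each measured promoter-only region at 3 months (x axis) and 32 months (y axis), in scanner units on log scales, with 1 point per region, 1 panel per array and a line of equal signal. The 74 regions called higher lie above the line from dim to very bright signals, and the 9 called lower lie below it.

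The second array gave more higher calls than the first, in promoter-only regions as in all. On the first array 29 of 967 promoter-only regions (3.0%) were called higher, against 1.36% of all its autosomal regions, and 4 were called lower (0.414% against 0.585%). On the second array 45 of 1038 (4.34%) were called higher, against 2.76% of all, and 5 were called lower (0.482% against 0.451%). The share of promoter-only probes well above background was 64.5% to 67.9% in each sample on both arrays, and no such probe was saturated. Their median mean signal at 3 and 32 months was 105 and 180 on the first array, beside 80 and 107 for negative controls, but 69.8 and 128 on the second, beside 61.7 and 107. Regions of the X chromosome, which are not members, had a median of -0.07 and 20 lower against 3 higher calls among 508. The part of the sex of the animals in autosomal values was not tested.

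Of the higher regions, 30 had at least 3 probes and were called under each of 10 processing alternatives that could measure them. Not every alternative could end a call: the authors' value table holds the same values, and requiring 3 usable probes only leaves regions out. The 12 of these 30 regions with the largest ratios are described here. Tlx3 stood first with a region signal of 2700 at 3 months and 243000 at 32 months, a log2 ratio of 5.78 ± 2.01 (SD over 3 probes). The SD here and below is over the probes of a region and says nothing of variation between animals. Sdk2, a cell adhesion gene of retinal synapses, had 12050 and 269600, with probe ratios from 2.93 to 6.16. Irx2, an Iroquois homeobox gene, had 9600 and 196000, and its 4 probes split into 3 at 4.35 to 4.80 and 1 at 0.27. That odd probe lay at the end of the region with the higher coordinate.

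Sorcs3, a sorting receptor gene expressed in brain, was dim at 3 months with 327 and had 7140 at 32 months, a log2 ratio of 4.25 ± 0.64 over 3 probes. Grb10 followed at 3.83 ± 0.31, with the smallest spread but 1 among these regions. Zfp536, a zinc finger gene of brain, was the region with the most probes among them. Its signal was 550 at 3 months and 9930 at 32 months, and its ratio 3.65 ± 1.67 over 7 probes. All 7 were above 0, from 0.66 to 5.91, and the lowest one again lay at the end of the region, where the signal was 369 and 585.

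Scube1, which encodes a secreted and cell surface protein with EGF-like repeats, had 10400 at 3 months and 81000 at 32 months on 3 probes, with ratios between 2.80 and 3.15. The region named A830059I20Rik, now Fam181b, had 30500 and 241000, although 1 of its 3 probes was at 0.095. Gdf7, a ligand of the BMP family, had 13900 and 64100 and a ratio of 2.78 ± 1.83 over 5 probes. In Gdf7 the first 3 probes along the coordinates had 2.78 to 4.35 and the last pair 0.60 and 0.64. These last probes were already bright at 3 months, with 45600 and 46500, and reached 64700 and 64100. The region named 2200001I15Rik, now Fam25c, had 329 and 2665, with a ratio of 2.58 ± 0.86 over 4 probes.

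Gbx2, a homeobox gene of the boundary between midbrain and hindbrain, had 1148 and 5900 and agreed over its 4 probes at 2.44 ± 0.42. Smc1b, which encodes a cohesin subunit of meiosis, had 594 at 3 months and 4800 at 32 months, at 2.36 ± 1.42 over 5 probes. All 12 of these regions were well above background on every probe at both ages. No region called lower kept its call under every one of the 10 alternatives, so the same rule named none in that direction.

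**Figure D2:**
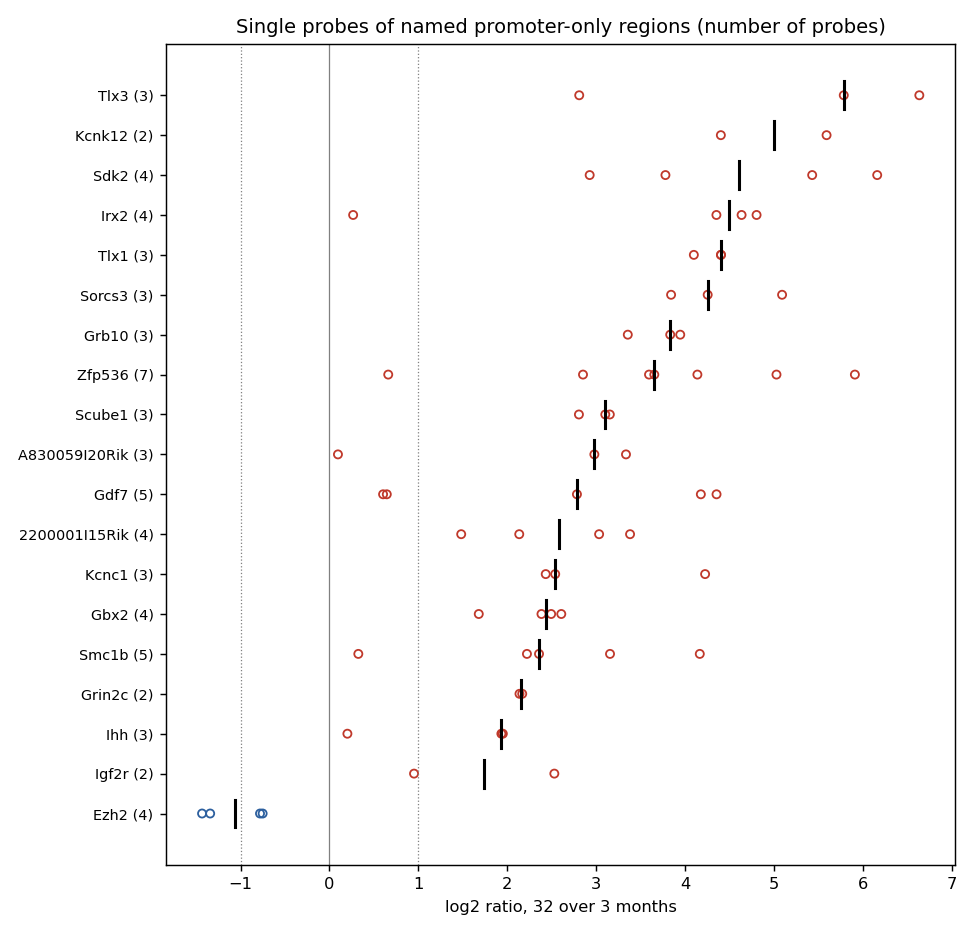
Log2 ratio of 32-month over 3-month signal (x axis) of each usable probe (circles) and their median (bar) in named promoter-only regions (y axis, with the number of probes). Probes of Grb10, Scube1 and Tlx1 lie close together, while Irx2, Zfp536 and Gdf7 each hold a probe between 0.27 and 0.66 beside probes above 4.

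Developmental transcription factors had the most calls of the 16 gene lists. Many of these homeobox, T-box, forkhead and related factors, though not all, switch on gene programmes of the embryo and are silent in most adult cells. Of 46 measured promoter-only regions of the list, 12 (26.1%) were called higher and none was called lower. The list median was 0.30, beside 0.017 over all promoter-only regions. Their regions of other classes had 20 of 183 called higher (10.9%) and a median of 0.17. The list has been known from earlier results of these data, so its count is a description and not independent support.

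The leading members of the list after Tlx3 and Irx2 were Tlx1, at 4.40 ± 0.18 over 3 probes with 8700 at 3 months and 167000 at 32 months, and Six2, a factor of kidney progenitors. Six2 had 11100 and 78900 on 2 probes at 2.87 and 3.06. Tlx1 lost its call when dim probes were kept, at 4.10. Besides Gbx2 and Hand2, the further called members, listed after their values were seen, were Foxf2, Nkx6-1, Sall1, Nkx6-2, Tbx21 and Pou3f2. The call of Nkx6-2, a factor of oligodendrocytes with a ratio of 1.80, was lost after normexp correction at 0.58. Foxf2, a forkhead factor of gut mesenchyme, had 7695 at 3 months and 26050 at 32 months. Sall1, a zinc finger factor of kidney, had 1020 and 4640, and all 7 of its probes lay between 1.05 and 2.92. Tbx21, the T-box factor of type 1 helper T cells, had 831.5 and 2255 with 4 probes within 1.57 to 1.67.

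The other 34 measured regions of the list were not called. Alx4, a factor of limb and skull, had 2460 and 34300 and a ratio of 2.56, but not all of its 3 probes were above 0 and it was not called. Foxf1a, the partner of Foxf2 in gut mesenchyme, had 0.98 and missed the threshold. The 9 measured Hox regions, which pattern the embryo from head to tail, ranged from -0.52 for Hoxb9 to 0.55 for Hoxb6, none of them called. Hoxb13, a Hox gene of the hindgut, was bright at both ages, with 6305 and 7435. The lowest members were Lhx2, a LIM homeobox gene, at -1.18 with 12250 at 3 months and 7045 at 32 months, and Sox12, a factor of neural development, with 3550 and 1850. In neither did all probes lie below 0, so neither was called.

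The calls of the list lay almost wholly in bright regions. Each array was cut into 10 bins of equal size by the brightness of all its measured autosomal regions. In the 2 brightest bins 11 of the 21 members were called higher, against 44 of 372 promoter-only regions of all other genes (11.8%). In the 8 other bins 1 of 25 members was called, against 18 of 1587. Brightness averages both ages, so a high signal at the older age both favours a higher call and moves a region up the bins. The place of these calls in bright bins is therefore partly built in. A split of the list by the signal of the younger age alone was not tested. Without the genes of this list, an alternative added after the data were seen, 62 promoter-only regions were called higher (3.17%), against 2.10% of inside-only, 2.59% of divergent-only and 1.48% of mixed regions.

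Ion channel and neurotransmitter receptor genes, which carry electrical signals, had 5 of 32 measured regions called higher (15.6%) and 0 lower, beside 3.69% of all promoter-only regions. Their regions of other classes had 7 of 173. Kcnk12, a potassium channel gene of the tandem-pore family, had 16050 at 3 months and 377500 at 32 months, a ratio of 4.99 ± 0.84 over 2 probes. Kcnc1, a voltage-gated potassium channel of fast-firing neurons, had 6470 and 35000 at 2.54 ± 1.01 over 3 probes, and lost its call at 2.48 when dim probes were kept. Grin2c, a subunit of the NMDA glutamate receptor, had 605.5 and 2440 on 2 probes at 2.14 and 2.17. Kcnn2, a calcium-activated potassium channel, and Kcnq5, a voltage-gated one, were called at 1.53 and 1.46, and Kcnq5 lost its call after normexp correction at 0.95. The remaining 27 regions of the list ranged up to 0.66, and Kcnh2, a potassium channel of the heart beat, was lowest at -0.79 with 8590 and 4760.

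Secreted developmental signals had 2 of 17 regions called higher, Gdf7 and Ihh, beside 3.69% of all promoter-only regions. Regions of other classes had 4 of 66 called higher for this list. Ihh, the hedgehog ligand made by gut epithelium, had 4700 at 3 months and 18200 at 32 months, with 2 probes at 1.93 and 1.95 and 1 at 0.20. Ligands of the Wnt and Fgf families lay between -0.45 for Fgf18 and 0.21 for Wnt7a and none was called. Axon guidance genes had 1 of 15 called, Plxnb1, a semaphorin receptor, with 6360 and 18500 at 1.02. Cadherins and protocadherins had 1 of 23 called, Celsr1, a planar polarity cadherin, at 1.07 with probes at 0.25 and 1.89. Neither of these calls held with uncentred ratios, at 0.88 and 0.93. Regions of other classes had 4 of 46 called higher in axon guidance genes and 3 of 50 in cadherins and protocadherins. Solute carriers had 1 of 39 called, Slc6a17, an amino acid transporter of synaptic vesicles, with 2346 and 26450 at 3.89 ± 1.13 over 2 probes. Their regions of other classes had 3 of 248. A single call in a list of 15 to 39 regions allows no reading against 3.69%.

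Imprinted genes are active on the copy from 1 parent, and they had 2 of 6 regions called higher, Grb10 and Igf2r, beside 3.69% of all promoter-only regions and 2 of 40 imprinted regions of other classes. Igf2r encodes the receptor that clears insulin-like growth factor 2, and its probes had 699 and 110 at 3 months against 3660 and 193 at 32 months. The ligand's own gene, Igf2, had 11400 and 5550, a ratio of -0.92 over 3 probes, and was not called. Slc22a18, Dcn and Kcnq1 lay between -0.28 and 0.23.

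Genes of DNA methylation and Polycomb complexes, among them enzymes that write silencing marks, had 0 of 8 regions called higher and 1 lower. That region was Ezh2, at -1.06 ± 0.36 over 4 probes, and its ratio was -0.27 after normexp correction. Suz12, the partner of Ezh2, had 2440 and 2135 without a call, and Dnmt3b, a methyltransferase of unmethylated DNA, 617 and 642. Dnmt3a, its relative, had 3118 at 3 months and 16720 at 32 months, with a ratio of 1.22, but its probes did not all lie above 0.

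The remaining lists had 0 to 3 calls each, and 3.69% of their sizes, the share over all promoter-only regions, is also a small number. Olfactory and vomeronasal receptor genes, which are used in sensory neurons of the nose, made up 411 of the 2923 promoter-only regions, but 114 were measured. Their median was -0.10, 38 lay above 0, and 1 was called higher and 2 lower. Most of them were dim, with a median brightness bin of 2 out of 10, counted from the dimmest. Regions of other classes of the same genes had a median of -0.015. Olfr1513 had 140 at 3 months and 56.3 at 32 months, with 1 of 2 probes well above background at 32 months. Olfr205 had 138.5 and 58.5 and the same limit, while Olfr1424 had 78.95 and 175. None of these 3 kept its call after normexp correction. Ribosomal protein genes, active in every cell, had 0 of 22 regions called in either direction and a median of 0.07. Immune receptors and cytokines had 0 of 20 with a median of -0.08, and germ cell genes 0 of 5. Zfp zinc finger genes had 1 of 20, Zfp536.

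**Figure D3:**
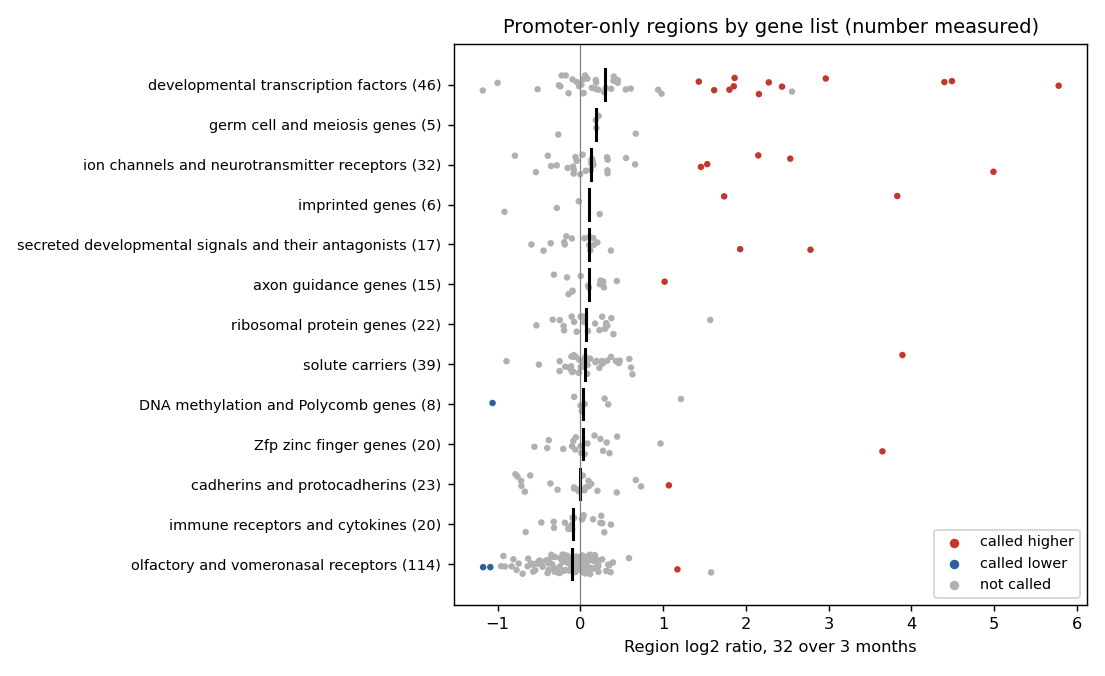
Log2 ratio of 32-month over 3-month signal (x axis) of each measured promoter-only region by gene list (y axis, with the number measured), with red points called higher, blue points called lower and bars at list medians. Developmental transcription factors hold 12 of the red points, and the 114 olfactory and vomeronasal receptor regions centre on -0.10.

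Markers of the cell types that intestine holds were scarce among promoter-only regions. Intestinal epithelium had 3 measured regions of 5, Krt18, Klf5 and Krt8, with ratios of 0.96, 0.36 and -0.09, and none was called. Smooth muscle and stroma had 1, Dcn at 0.23, and enteric neurons and glia had 0. The part of cell mixture in the values of these regions was not tested. Of the called regions, 48 higher and 6 lower ones belonged to no list.

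Among the regions outside the lists, named here after their values were seen, C1ql1, a synapse organiser of the complement C1q family, had 910.5 at 3 months and 19850 at 32 months on 2 probes, a ratio of 4.59. Akap12, a scaffold that anchors protein kinase A, had 1106 and 18700, a ratio of 3.98 over 4 probes. Its lowest probe, at 0.61, was not well above background at 3 months, and the call was lost after normexp correction. Prkaa2, a catalytic subunit of AMP-activated protein kinase, had 2655 and 21400 at 3.05. Bcan, the brain proteoglycan brevican, had 5780 and 29100 at 2.33. Bcl11b, a factor of T cell development, had 1905 and 6500 with 4 probes from 1.91 to 2.25.

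The 9 lower regions were Gnn, Ihpk1, Pstpip2, 2010007H12Rik, Mlstd2, Olfr1513, Olfr205, Ezh2 and Trim56. Gnn was lowest, with 12700 at 3 months and 1510 at 32 months over 3 probes at -0.28, -1.74 and -2.93. Ihpk1, an inositol phosphate kinase, had 4970 and 1620 at -1.48, and Mlstd2, a fatty acyl-CoA reductase now named Far1, had 6050 and 3300 at -1.20. Trim56, a ubiquitin ligase of antiviral defence, was brightest, with 28585 and 11460. After normexp correction 0 of the 9 kept the call.

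Bright regions held most of the higher calls in each class, and promoter-only regions had the highest share among them. In the 2 brightest bins 55 of 393 promoter-only regions (14.0%) were called higher, against 30 of 498 inside-only (6.02%), 16 of 188 divergent-only (8.51%) and 111 of 1832 mixed regions (6.06%). In the 8 other bins these were 19 of 1612, 15 of 1613, 10 of 816 and 42 of 7409. In the brightest bin alone 18.3% of promoter-only regions were called. Brightness averages both samples, so a high 32-month signal itself moves a region up. Bins cut on the 3-month signal alone left the contrasts below almost as large.

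**Figure D4:**
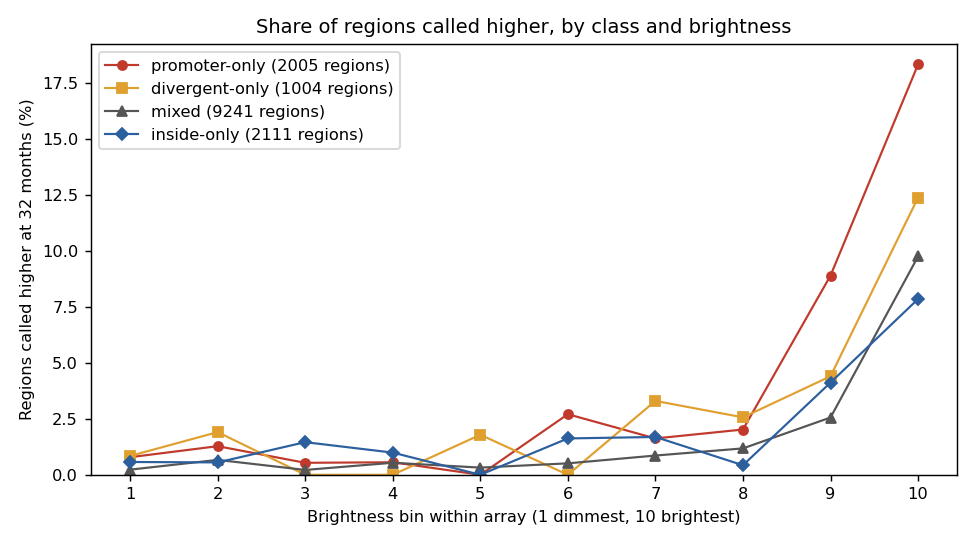
Share of measured autosomal regions called higher at 32 months (y axis, percent) in 10 brightness bins cut within each array (x axis), with 1 line for each annotation class. Promoter-only regions reach 18.3% in the brightest bin, above the other classes, and no class is consistently highest in the dimmer bins.

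At equal brightness and array, the share of promoter-only regions called higher was above that of inside-only and of mixed regions. It was above that of divergent-only regions by fewer points. Weighted to the brightness bins and arrays of the promoter-only regions, inside-only regions had 1.97% called higher (2.13% without weighting), a difference of 1.72 percentage points from 3.69%. With bins on the 3-month signal the difference was 1.69 points, and with bins crossed with the number of usable probes 1.88. Divergent-only regions had 2.63%, a difference of 1.06 points that rests on 26 called divergent-only regions. Limits from exact binomial intervals of both shares, which cover the count of regions only, were 0.666 to 2.8 points for inside-only regions. For divergent-only regions they were -0.357 to 2.38. These limits take regions as separate draws, leave out variation between animals and arrays, and are no test between classes. Mixed regions had 1.71% (1.66% without weighting), a difference of 1.99 points. The direction was the same on both arrays for each of the 3 classes. On the first array 3.00% of promoter-only regions stood against 1.60% of inside-only, 1.91% of divergent-only and 1.10% of mixed regions, and on the second 4.34% stood against 2.31%, 3.30% and 2.27%. With 1 sample per age these differences have no replicate error, and after normexp correction the difference was 0.426 points from inside-only and 0.39 from divergent-only regions. Without the transcription factor list these differences were 1.27 and 0.573 points.

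When only the promoter probes of mixed regions were used, 7515 such regions remained, and 2.93% of them were called higher at equal brightness. The difference from promoter-only regions was then 0.76 points, a comparison added after values were seen. Regions called lower were about as frequent as elsewhere, at 0.449% against 0.59% of inside-only and 0.47% of mixed regions at equal brightness, or 0.663% and 0.444% without weighting. Divergent-only regions had more of them, 1.28% at equal brightness and 1.2% without weighting. Medians did not follow the calls, since the median ratio of promoter-only regions differed by 0.0053 from that of inside-only and by 0.0046 from that of divergent-only regions at equal brightness.

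Within a called region the probes often disagreed in size. In 31 of the 74 higher regions every usable probe had a ratio of at least 1, whereas in 23 the lowest probe was under 0.5. The probes of a higher region spanned 1.43 on the log2 scale at the median, against 0.64 in regions that were not called. Hand2 had the widest contrast among the regions described here. Its first 4 probes in order of coordinate had ratios of 0.32, 0.15, 0.18 and 0.94, and its last 4 had 3.62, 5.53, 6.02 and 4.49. The region as a whole stood at 2.28 ± 2.53 over 8 probes, and its call was lost after normexp correction. Signals followed the same division, from 70.6 to 517 at 3 months on the first 4 probes and from 1630 to 13000 on the last 4.

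**Figure D5:**
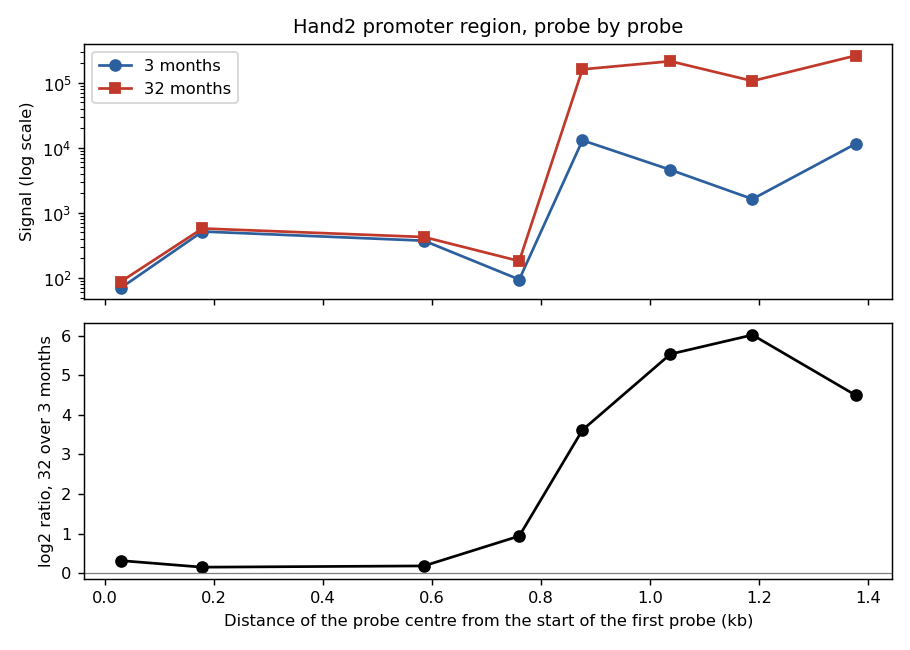
Signal of each Hand2 probe at both ages (upper panel, log scale) and its log2 ratio of 32 over 3 months (lower panel) against the distance from the first probe in kb. The first 4 probes have ratios up to 0.94 and the last 4 have ratios from 3.62 to 6.02.

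Probes without a CpG differed too in the higher regions. The 79 usable probes without a CpG in these regions had a median ratio of 1.6, the 84 with 1 CpG 1.55, and the 86 with 2 or more 2.23. In regions not called these medians were -0.03, 0.01 and 0.05. Signal grew with the CpG count at both ages, from 282 to 719 at 3 months and from 279 to 737.5 at 32 months in regions not called. Probes of higher regions held 1.27 CpG on average and those of regions not called 1.06. Within the 2 brightest bins these were 1.34 and 1.24.

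RefSeq promoter windows of assembly GRCm38.p6, from 250 bases before to 50 after a gene's start, were found for 1528 of the 2005 measured regions (76.2%). This is under 80%, so a contrast of their CpG content between called and other regions is void. In the 2 brightest bins 81.8% of higher and 78.4% of other regions had a window. Of the 9990 promoter-only probes 1510 (15.1%) matched such a window letter for letter, and 1441 of these were centred before the start. Matched usable probes had a median ratio of 0.002 with 6.93% of 1053 at 1 or more, and the rest had 0.017 with 7.35% of 5362. The rest includes probes of regions without a window, so this does not compare probes near the start with probes farther away. The share of higher calls also varied little with the GC content of the probes, from 3.28% to 4.05% between groups of low, middle and high GC.

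Higher calls were spread over all 19 autosomes. Chromosomes 8 and 17 had the highest shares, 7 of 91 regions (7.69%) and 7 of 97 (7.22%), and chromosome 2 the lowest, 1 of 167 (0.599%). These counts are small and chromosomes lie on different arrays. Among the called regions 9 neighbouring pairs lay under 1 Mb apart, a count that was not compared with the spacing of all measured regions. The nearest pair pointed in opposite directions: Ihpk1, lower, and Apeh, an acylpeptide hydrolase gene, higher at 1.28 ± 0.61 over 5 probes, lay 91.9 kb apart on chromosome 9. Neither call held after normexp correction.

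Where a gene with a called promoter-only region also had a measured region of another class, the pair was compared. Such a region existed for 10 of the 74 higher regions, and it was called higher for Crmp1 alone. Over all other autosomal regions 230 of 12830 (1.79%) were called higher, and a single call in 10 allows no reading against that share. Crmp1, which encodes a collapsin response mediator of axon growth, had 1.83 in its promoter-only region and 3.12 over 7 probes in a mixed region 2905 bp away, with 11000 at 3 months and 160000 at 32 months. Zfp536 had -0.23 in a mixed region 2163 bp away, with 2215 and 2070, beside 3.65 in the promoter-only region. Kcnc1 had -0.39 and Grb10 0.52 inside the gene. Among 20 genes with several measured promoter-only regions, 1 had a call: Rbm28, an RNA-binding protein gene, at 1.17 in 1 region and 0.07 in the other, a call that was lost after normexp correction and with dim probes kept.

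The threshold divided near values. The regions just inside it were Adssl1, a muscle enzyme of AMP synthesis, at 1.00, 3110048E14Rik at 1.01 and Klf15, a Krüppel-like factor of metabolism, at 1.01. Just outside, with all probes above 0, were Rap1b, a small GTPase, the region named 1810044A24Rik and Nr1d2, a nuclear receptor of the circadian clock, each at 0.97. A further 11 regions reached 1 or more without agreement of all probes, and 9 did so in the lower direction.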

How the data were processed

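Genomic DNA of 3-month (Cy3) and 32-month (Cy5) intestine was hybridised together on 2 Agilent arrays. Per the submitters' processing notes, scans were read with Agilent Feature Extraction 9.1.3.1. Deposited processed signals, an intensity per probe, were used; per the file headers a fitted background had been subtracted, spatial trends removed and the dyes balanced linearly. Mean and local background intensity values from the same deposited files served the normexp alternative. The authors' value table equalled the processed signals in 100% of spots.

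Log2 ratios were centred on the median of each array (0.0044 and -0.14 before centring), without control spots or flagged probes. Precision is limited by signal over background, given in the results. Regions needed 2 usable probes. No test between ages was run, since there is 1 sample per age and array. Symbols of 1592 regions were current in RefSeq GRCm38.p6, 353 were updated and 60 kept, of which 1 is a calendar date and was left unnamed.

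Named regions are the 12 largest in each direction with at least 3 probes that were called under each of the first 10 alternatives that measures them, the 3 or fewer strongest calls in every one of 16 lists, and 3 on either side of the threshold. Members and lists were chosen with earlier results of these data known. Alternatives changed centring, loess, normexp (offset 50, limma 3.58.1, R 4.3.3), probe filters, block medians of 10 rows by 5 columns, probe summary, gaps (500 bp), threshold (1.5), and the bins. Further ones, centring on usable probes and leaving out the transcription factor list, were added after the data were seen. Other work used Python 3.11.15, pandas 2.3.3 and numpy 2.4.6.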

Additional observations from a re-analysis of the deposited data

How the results depend on the processing

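No paired analysis was possible because each age has 1 sample per array. The count of higher regions (74) ranged from 44 to 106 over 12 alternatives and left 1.5 times the main count only at a threshold of 1.5, with 44, by construction. The count of lower regions (9) was 18 with uncentred ratios, 0 after normexp correction, 4 with dim probes kept, 19 with gaps of at most 500 bp and 1 at a threshold of 1.5. The median of all promoter-only regions (0.017) was -0.0432 uncentred, 3.2e-05 after loess, 0.10 after normexp, -4.62e-05 with dim probes kept, 0 with block medians removed and -0.0067 when centred on usable probes. Normexp also moved the median of all autosomal regions to 0.11, with 2.82% of them called higher and 0.054% lower. The share called higher minus that of inside-only regions (1.72 points) was 0.426 to 2.56 over 15 alternatives, lowest after normexp, and that of divergent-only regions (1.06) 0.39 to 1.74. The share called lower minus that of divergent-only regions (-0.833) was 0 after normexp, when neither class had a call at equal brightness. For these changes the cause was not tested, except where stated. Of single calls, 41 of 74 higher and 0 of 9 lower ones held under each of 10 processing alternatives that could measure them. The authors' value table and the demand for 3 usable probes are among these 10 and could not end a call. Normexp ended 22 higher calls, uncentred ratios 11, block medians 10, loess 8 and dim probes 7. Signal over background limits the dim regions. Of the 918 regions not measured, 302 had a single probe, and 616 had several but fewer than 2 usable.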
